A study of Rattus norvegicus with 23 samples.

Results

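Repair of a cut median nerve was compared between the libraries labelled MIV and those labelled EV, 7 days after surgery, over every gene identifier in the count table. The comparison uses 6 of the 23 libraries of the series, 3 labelled MIV_7D and 3 labelled EV_7D, chosen by their titles alone. All were wild-type adult female rats whose median nerve had been transected to leave a gap of 8 mm. The MIV libraries carry the treatment of cut, repair and MIV, and the series design gives a muscle-in-vein graft of 10 mm. The EV libraries carry the treatment of cut and repair without naming MIV, and the meaning of EV is not given in the sources used here. The references were 5 libraries of healthy median nerve, 3 of adductor muscle and 3 of epigastric vein, untreated and taken at day 0. The same repairs at day 3 (n = 3 each) gave the comparison in time. Whether each library is an animal of its own is not in the labels, so the spread behind every p-value is that between samples and may be technical.

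A muscle-in-vein graft is a segment of vein filled with skeletal muscle, used as a conduit across a nerve gap. The muscle keeps the vein from collapsing, and muscle fibres placed in a graft lose their nerve and blood supply, so they can degenerate, and skeletal muscle has satellite cells that can form new fibres. In the first days after nerve injury, axons cut off from their cell body degenerate, Schwann cells leave the myelinating state, and macrophages and fibroblasts enter the bridge before axons grow through it.

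No table used here pairs the gene identifiers with gene names, so markers of cell types could not be read and the labelled tissue could not be checked against them. Genes were instead grouped by the healthy tissue that carries them. A gene was called enriched in muscle, nerve or vein when it exceeded both of the other healthy tissues by over 1 log2 unit, each with an edgeR adjusted p under 0.05. This gave 2848 muscle-enriched, 1531 nerve-enriched and 1176 vein-enriched genes, and 2137 genes shared by nerve and vein that lay that far below both in muscle. Genes that were as far above, or below, all 3 healthy tissues in the mean of the day 3 repairs were called injury-induced (1492) and injury-reduced (887), and can also belong to a tissue group. No day 7 library entered these definitions, but the day 3 libraries also enter the estimate of spread behind the day 7 test.

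The 6 libraries held 12757949 to 15268422 counts each, and 11322 of the 32545 identifiers had no count in any of them. The 3 EV libraries were alike, with correlations of 0.966 to 0.967 in log2 CPM, that is counts scaled to library size, across genes. The MIV libraries were not. MIV replicates 1 and 3 correlated at 0.946, replicates 1 and 2 at 0.883 and replicates 2 and 3 at 0.851, and replicate 2 correlated best with an EV library, EV replicate 2, at 0.912. On component 3 of the 12 repaired libraries, MIV replicate 2 lay at -103.8 and the other 11 libraries at -10.96 or above. MIV replicate 2 had 360 genes more than 1 log2 unit above all 11 other repaired libraries and 126 as far below them. Those 360 of 15036 tested genes held 105 of the 1490 injury-induced genes and 2 of the 802 injury-reduced ones. They held 62 of 2076 genes shared by nerve and vein, 55 of 1116 vein-enriched, 27 of 1191 nerve-enriched and 12 of 2722 muscle-enriched genes. Of the 6556 tested genes in no group, 131 were among them. MIV replicate 3 stood out in another way, with 398 of the 15036 genes as far above the other 11 libraries and 94 below. Of the 398, 323 were among the 2722 muscle-enriched genes. MIV replicate 1 had 19 above and 33 below, in the range of the EV libraries for the first (19 to 52) but not for the second (13 to 16). Values are therefore given by library, with and without MIV replicate 2. That library was singled out in these same counts. Calls made without it describe MIV replicates 1 and 3 against EV and are no independent support.

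**Figure D1:**
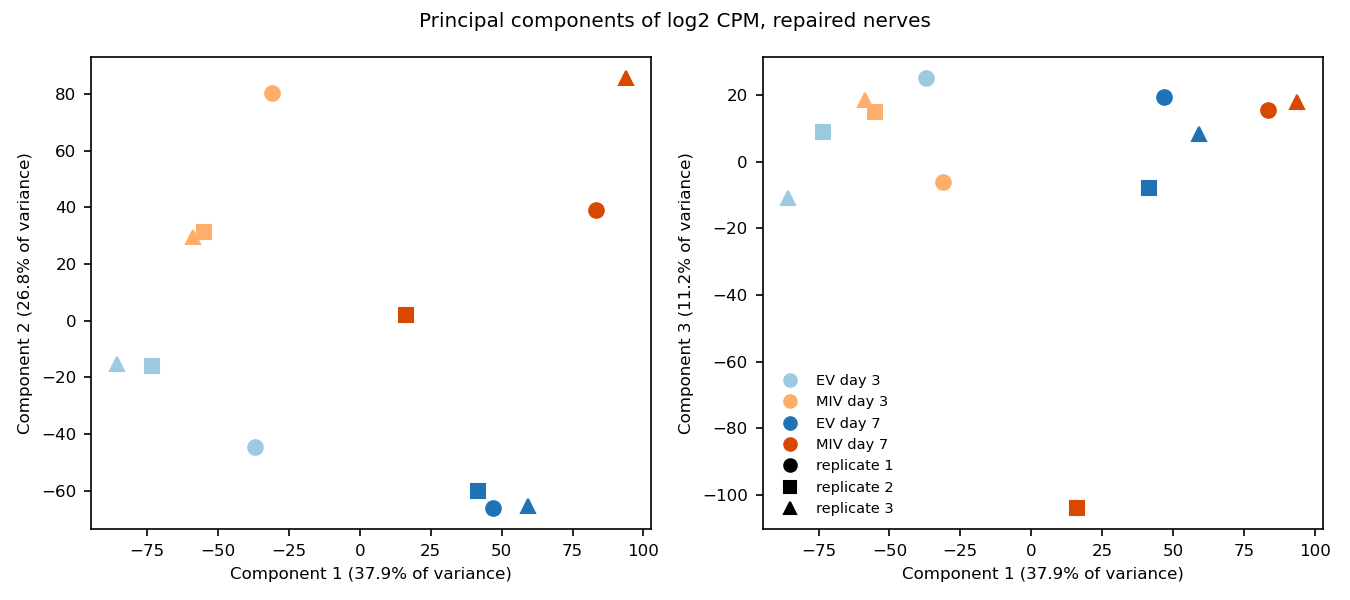
Principal components of log2 CPM in the 12 repaired libraries, with 1 point per library, colour for group and shape for replicate number; the left panel plots components 1 and 2 and the right panel components 1 and 3. MIV day 7 replicate 2 lies between the groups on the left and at -103.8 on component 3, where all other libraries lie at -10.96 or above.

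The whole transcriptome was compared first. With edgeR's quasi-likelihood test on the 12 repaired libraries, 0 of 15036 genes passed a Benjamini-Hochberg adjusted p of 0.05 (0% called), and the lowest adjusted p was 0.0606, shared by 11 genes. The unadjusted p was under 0.05 for 1476 genes that lay higher in MIV (9.82%) and 1038 that lay lower (6.9%). Every MIV library lay above every EV library for 1449 genes (9.64% of those tested) and below for 1715 (11.4%). With scaling factors from genes that are not muscle-enriched, the share of genes at that unadjusted p that were higher went from 58.7% to 73.8%, and the genes without overlap were 1883 above and 1181 below. On CPM of the library total they were 924 above and 2664 below. Under these scalings and RLE factors, 623 to 977 muscle-enriched genes lay above (22.9% to 35.9%, against 6.15% to 12.5% of all genes). The vein-enriched genes lay below in 315 to 451 cases (28.2% to 40.4%, against 7.85% to 17.7% of all genes). Of the 12 libraries left out in turn, MIV replicate 2 moved the count of called genes most. Without it, edgeR called 649 of 15405 genes higher (4.21%) and 39 lower (0.253%), and the biological coefficient of variation went from 37.1% to 31.0%. Without MIV day 3 replicate 1, MIV day 7 replicate 1 or MIV day 7 replicate 3, edgeR called 45, 16 and 1 genes, and without each other library 0. When the day 7 libraries were blocked by replicate number, 36 genes were called higher (0.239%) and 7 lower (0.0466%). No label states that pairing. It was read from the same counts, so the calls with the block are no independent support. On all 3 MIV libraries without a block, DESeq2 called 868 genes and voom with quality weights 414, and 474 and 352 of these were among the 688 called by edgeR without MIV replicate 2.

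**Figure D2:**
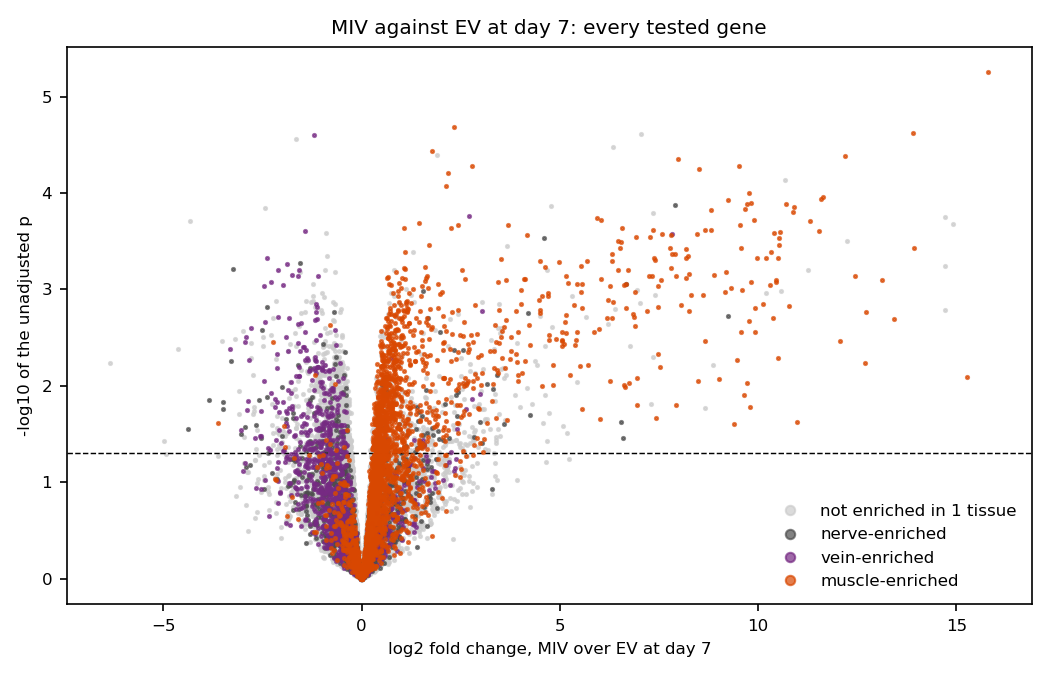
Log2 fold change of MIV over EV at day 7 against -log10 of the unadjusted edgeR p, with 1 point for each of 15036 genes, coloured by the healthy tissue in which it is enriched; the dashed line marks the unadjusted threshold of 0.05. Muscle-enriched genes fill the right arm, out to a log2 fold change of 15.80, and vein-enriched genes lie mostly on the left.

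Muscle-enriched genes lay higher in MIV than in EV at day 7. They took 17.7%, 17.5% and 16.5% of the counts in EV replicates 1 to 3, and 25.03%, 18.2% and 37.6% in MIV replicates 1 to 3. All 3 MIV libraries lay above all 3 EV libraries, but replicate 2 by less than 1 percentage point. The means differed by 9.74 percentage points (exact permutation p = 0.1, two-sided, which is the lowest value 3 against 3 can give), 14.1 without MIV replicate 2 and 4.41 without MIV replicate 3. In RNA from whole tissue, more cells of a type and more RNA per cell cannot be told apart.

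Among the 2722 muscle-enriched genes that passed the filter on low counts, 86.3% had a log2 fold change above 0; its median was 0.40 and its quartiles 0.15 and 0.83. The median over all genes tested was 0.01, with 50.9% positive. The unadjusted p was under 0.05 for 990 muscle-enriched genes that were higher (36.4%, against 9.82% of all genes) and 12 that were lower (0.441%, against 6.9%). Every MIV library lay above every EV library for 870 (32%, against 9.64% of all genes) and below for 18 (0.661%, against 11.4%). None passed the adjusted threshold with all libraries. Without MIV replicate 2, set aside because it stood apart in these same counts, the median was 0.46. By edgeR's adjusted p, 531 of 2755 then rose (19.3%, against 4.21% of all genes) and 0 fell. With the replicate block 26 rose (0.955%, against 0.239% of all genes) and 0 fell. The filter keeps a gene that is present in MIV alone, so the counts describe the genes that passed it.

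**Figure D3:**
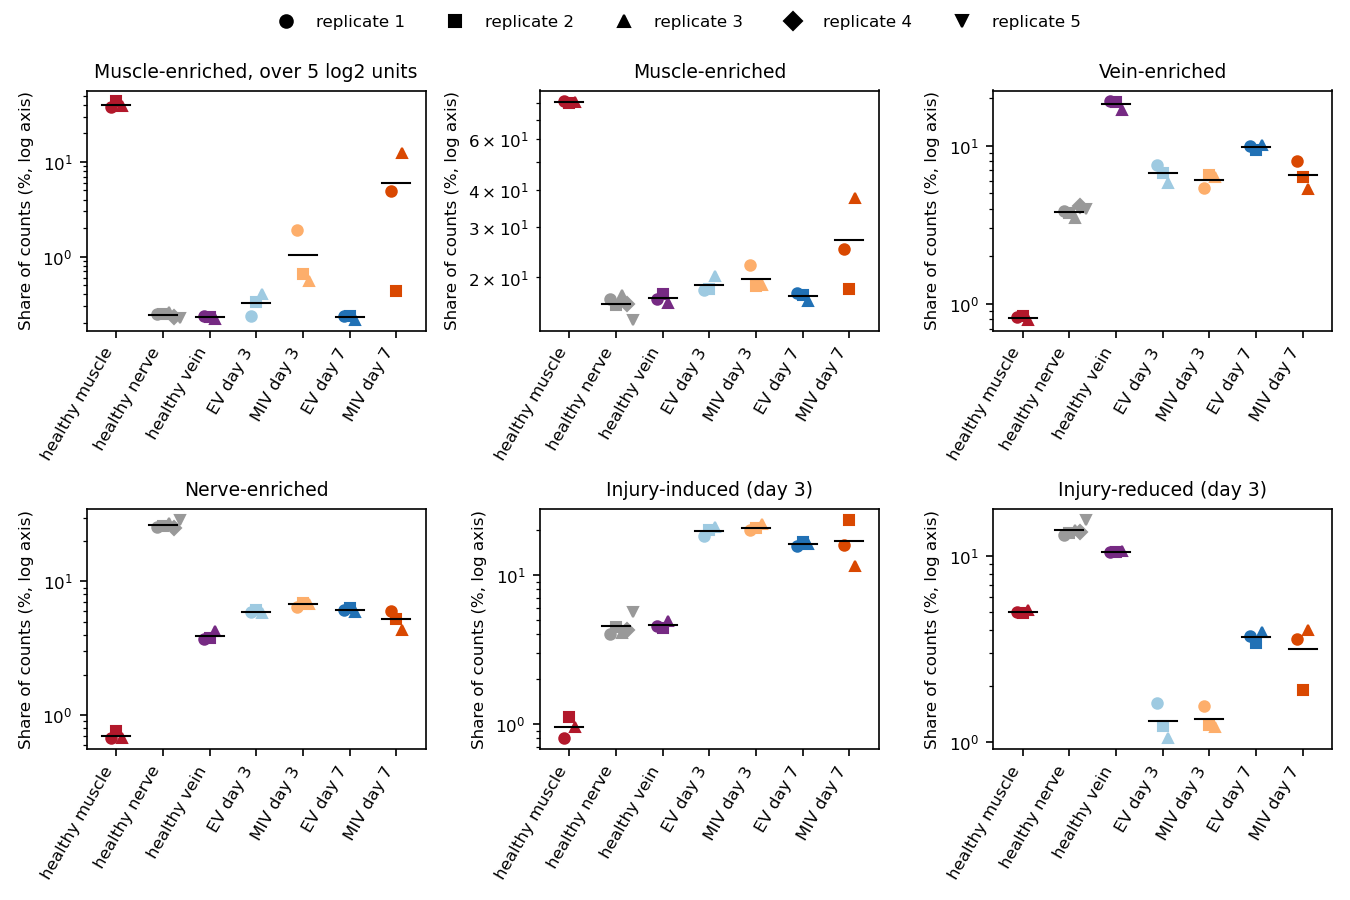
Share of all counts (percent, log axis) taken by 6 gene groups in each library of the 7 groups of the series, with 1 point per library and a line at the group mean. MIV day 7 replicates 1 and 3 carry 4.89% and 12.5% of counts in genes over 5 log2 units above both other tissues in muscle, against 0.435% in replicate 2 and 0.216% to 0.240% in EV.

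Being enriched in muscle does not mean being absent elsewhere: the whole group took 16.2% ± 1.18 (SD, n = 5) of the counts in healthy nerve and 16.9% ± 0.624 (SD, n = 3) in healthy vein. Genes closest to absent from nerve and vein separated the repairs most. The 339 genes with over 5 log2 units of muscle enrichment took 40.2% ± 2.84 (SD, n = 3) of the counts in healthy muscle, 0.243% ± 0.0146 (SD, n = 5) in healthy nerve and 0.230% ± 0.00975 (SD, n = 3) in healthy vein. In EV at day 7 they took 0.240%, 0.239% and 0.216%, close to healthy nerve and vein. In MIV they took 4.89% in replicate 1, 0.435% in replicate 2 and 12.5% in replicate 3. Replicate 2 was above all EV libraries and still more than 10-fold below replicate 1. The mean was 25.7 times that of EV (5.95% against 0.232%, exact permutation p = 0.1). Without MIV replicate 3 it was 11.5 times that of EV, and without replicate 2 it was 37.6 times.

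Among the genes that passed the filter, the log2 difference grew with their muscle specificity. The median log2 fold change was 0.25 for 1455 genes at 1 to 2 log2 units above both other tissues, 0.45 for 596 at 2 to 3, and 0.89 for 403 at 3 to 5. It was 2.39 for 108 genes at 5 to 7 and 7.41 for the 160 of 211 genes beyond 7 that passed the filter, or 6.90 when genes with no count in EV were set at their lower bound. The share with an unadjusted p under 0.05 in the higher direction went from 21.6% through 35.4%, 58.6% and 71.3% to 94.4%, against 9.82% of all genes. MIV replicates 1 and 3 followed this gradient along its whole length, with medians above the EV mean from 0.17 to 5.92 and from 0.44 to 7.44. MIV replicate 2 stayed between 0.11 and 0.17 in the first 4 classes and reached 2.16 only in the last. Without MIV replicate 2, 146 of the 174 filtered genes beyond 7 log2 units rose by edgeR's adjusted p (83.9%). At 5 to 7 it was 60 of 114 (52.6%), against 4.21% of all genes. The filter keeps a gene present in MIV alone. With all libraries, 1455 of 1462, 596 of 611, 403 of 436, 108 of 128 and 160 of 211 genes passed. It can therefore raise the values of the last classes. Over every gene of each class, passed or not, the mean MIV share of counts was 1.09, 1.23, 1.68, 4.39 and 114 times that of EV. The libraries overlapped in the classes at 1 to 2 and 3 to 5.

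**Figure D4:**
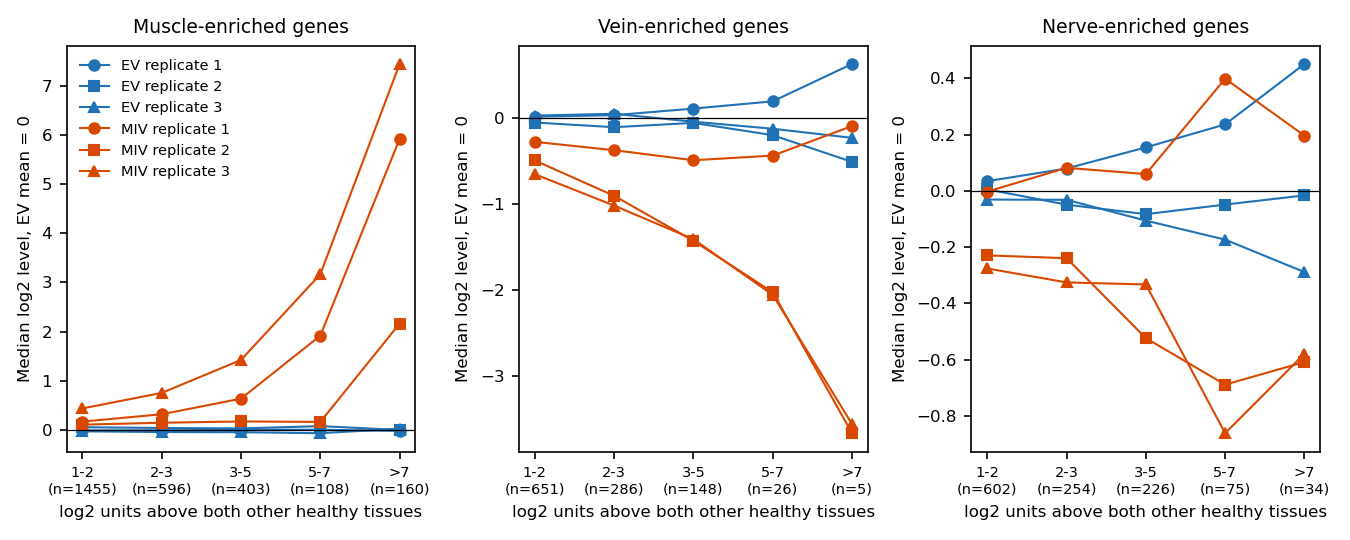
Median log2 level of the genes in 5 classes of enrichment in healthy muscle, vein or nerve, with 1 line per day 7 library and the EV mean set at 0; the number of genes is given under each class. In muscle-enriched genes, MIV replicates 1 and 3 rise to 5.92 and 7.44 while replicate 2 stays at or below 0.17 until the last class. Vein-enriched genes lie below the EV mean in all 3 MIV libraries, further down in replicates 2 and 3 than in replicate 1. The last vein class holds 5 genes, and replicate 1 is at -0.09 there.

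Some genes were present in MIV and nearly absent from EV. A total of 35 genes had at most 3 counts over the 3 EV libraries and a mean of at least 10 CPM in MIV at day 7. Of these, 26 were muscle-enriched, against 2722 of all 15036 genes tested. In the opposite direction, 0 genes had at most 3 counts over the 3 MIV libraries and 10 CPM in EV. Summed over the 35 genes, EV held 0.292, 0.833 and 0.930 CPM, and MIV held 3761, 395 and 14076 CPM in replicates 1 to 3. Replicate 2 was the lowest MIV library for all 35 genes and replicate 3 the highest for 34. Even so, the sum in replicate 2 lay more than 100-fold above any EV library. The choice of these genes used the day 7 levels, so the difference itself is a description, with no test.

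The level of these genes in healthy muscle was not used to choose them. For 18 of the 35 the MIV mean, on CPM of the library total, was at or below that of healthy muscle, and all 18 were muscle-enriched. Their summed level was 847, 38.7 and 2826 CPM in MIV replicates 1 to 3 and 6350, 4298 and 6332 CPM in the 3 healthy muscle libraries. For the other 17, with the MIV mean above that of healthy muscle, the sums were 2914, 356 and 11251 CPM against 205, 120 and 164 CPM. The split itself sets these directions, so the sums only describe their size. For 12 of the 17 the MIV mean was over 10 times that of healthy muscle, by at least 30.8 times, and 3 of those 12 were muscle-enriched. The split by healthy muscle level bears on that label, so how many carry it on each side is no separate result. At day 3 the 35 genes already summed to 493 to 2971 CPM in MIV and to 0.541 to 17.3 CPM in EV.

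**Figure D5:**
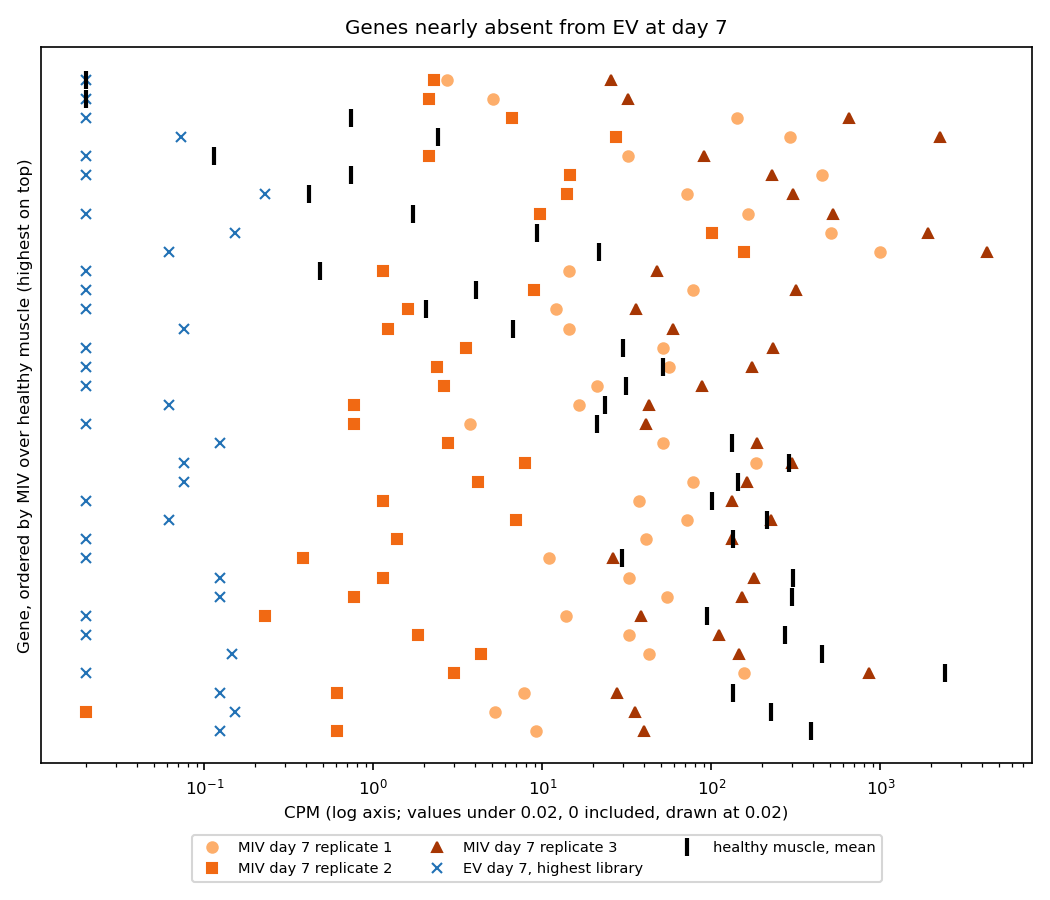
CPM (log axis) of the 35 genes with at most 3 counts over the EV day 7 libraries and at least 10 CPM in MIV, 1 gene per line, ordered by the ratio of MIV to healthy muscle; points are the MIV libraries, crosses the highest EV library and bars the healthy muscle mean. MIV replicate 2 is the lowest MIV library for all 35 genes, and in the upper part of the plot the healthy muscle bar lies far to the left of the MIV points.

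A pair of these genes came first in the order of edgeR's fitted log2 fold change among genes whose libraries did not overlap and whose MIV mean was at least 10 CPM. For a gene with no count in EV, such as the second of the pair, that value depends on the prior count and its place in the order is not a measured rank. ENSRNOG00000008536, a muscle-enriched gene, had 0, 0 and 0.0621 CPM in EV and 998, 156 and 4267 CPM in MIV. All MIV libraries lay far above EV, which had 1 count in all. The ratio of the counts pooled over the 3 libraries of each group, scaled to library size, was 73248, with a 95% interval for counting error of 13146 to 2893180. Its edgeR adjusted p was 0.0606 without a block, above the threshold, and 0.00167 without MIV replicate 2. With the replicate block and all libraries it was 0.00498, but that pairing was read from the same counts. In healthy muscle ENSRNOG00000008536 stood at only 12.3 to 38.2 CPM, below each of the 3 MIV libraries, and at day 3 it stood at 205 to 1253 CPM in MIV. ENSRNOG00000004583, also muscle-enriched, had no count in EV and 155, 2.98 and 853 CPM in MIV. Pooled over the 3 MIV libraries and scaled to library size, its counts lay 4509-fold above a floor of 3 counts over the EV group. The 95% interval for counting error began at 3667. Replicate 3 gave 10170 of these counts and replicate 2 only 39, so neither value is a bound for each MIV library. The edgeR adjusted p of this gene was 0.161, and 0.0590 without MIV replicate 2. ENSRNOG00000004583 stood at 2404 CPM ± 1139 (SD, n = 3) in healthy muscle, above every MIV library.

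Vein-enriched genes lay lower in MIV. They took 9.89%, 9.37% and 10.1% of counts in EV replicates 1 to 3 and 8.00%, 6.32% and 5.31% in MIV replicates 1 to 3. The groups did not overlap, and replicate 3 was the lowest library. The difference of the means was -3.24 percentage points (exact permutation p = 0.1). Since muscle-enriched genes took more of the counts in MIV, the share was also taken over the counts outside them. There it was 12.0%, 11.4% and 12.1% in EV and 10.7%, 7.72% and 8.51% in MIV, a difference of -2.85 percentage points, and the groups still did not overlap. Healthy vein held 18.2% ± 1.28 (SD, n = 3) of all counts in these genes and healthy nerve 3.83% ± 0.246 (SD, n = 5).

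By gene, 1116 vein-enriched genes had a median log2 fold change of -0.54, with 19.6% positive. The unadjusted p was under 0.05 for 245 that were lower (22%, against 6.9% of all genes) and 15 that were higher (1.34%, against 9.82%). Every MIV library lay below every EV library for 369 (33.1%, against 11.4% of all genes) and above for 11 (0.986%, against 9.64%). The median was -0.44 for genes at 1 to 2 log2 units above both other tissues, -0.65 at 2 to 3, -0.99 at 3 to 5 and -1.35 at 5 to 7, the last over 26 genes. By class median, MIV replicate 2 was not the exception in this group. Its medians in these classes, -0.49, -0.90, -1.43 and -2.03, lay close to those of replicate 3, which were -0.65, -1.02, -1.41 and -2.06, and replicate 1 lay nearer to EV. By gene it still stood apart. In replicate 2, 55 of the 1116 lay over 1 log2 unit above all 11 other repaired libraries and 19 as far below. Over all 15036 genes these were 360 and 126. In replicate 3 they were 4 and 16 of the 1116, and in replicate 1 they were 0 and 0. Without replicate 2 the group median was -0.57, and 13 vein-enriched genes fell (1.15%, against 0.253% of all genes) and 5 rose (0.443%, against 4.21%) by edgeR's adjusted p. With the replicate block 4 fell (0.358%, against 0.0466%) and 1 rose (0.0896%, against 0.239%).

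The genes shared by nerve and vein and low in muscle numbered 2076 after filtering, and their median log2 fold change was -0.25. The unadjusted p was under 0.05 for 289 lower (13.9%, against 6.9% of all genes) and 27 higher (1.3%, against 9.82%), and every MIV library lay below every EV library for 447 (21.5%, against 11.4% of all genes). Their share of counts went the other way in replicate 2. It was 19.1%, 19.6% and 19.8% in EV and 17.04%, 22.9% and 12.6% in MIV, so the groups overlapped (exact permutation p = 0.7).

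Nerve-enriched genes differed less. Their share of counts was 6.07%, 6.32% and 5.89% in EV and 6.05%, 5.21% and 4.30% in MIV, with replicate 1 inside the EV range (difference of the means -0.906 percentage points, exact permutation p = 0.2). The difference was -0.462 without MIV replicate 3 and -1.34 without replicate 1. Outside the muscle-enriched genes the share was 7.37%, 7.65% and 7.06% in EV and 8.08%, 6.37% and 6.89% in MIV. MIV replicate 1 was then the highest of the 6 libraries, and the difference was -0.250 percentage points. The 1191 tested genes had a median log2 fold change of -0.11, with 59 higher and 75 lower at an unadjusted p under 0.05. These are 4.95% and 6.3% of the group, against 9.82% and 6.9% of all genes. The 2 repairs were both far from healthy nerve, where the group took 26.6% ± 1.54 (SD, n = 5) of the counts.

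The largest negative log2 fold changes among genes without overlap and with at least 10 CPM in EV were those of a gene in no group and of a nerve-enriched gene. ENSRNOG00000047225 had 30.2, 3.17 and 28.7 CPM in EV and 0.541, 1.53 and 0.419 CPM in MIV, a log2 fold change of -4.63 ± 1.27 (SE, edgeR adjusted p = 0.128). EV replicate 2 lay nearer to MIV than to the other EV libraries. The gene also varied inside other groups, from 0.662 to 22.8 CPM in healthy nerve and from 0.986 to 42.4 CPM in MIV at day 3. ENSRNOG00000002728, the nerve-enriched gene, had 13.1, 7.94 and 9.003 CPM in EV and 2.17, 0 and 0.838 CPM in MIV, a log2 fold change of -3.30 ± 0.95 (SE, edgeR adjusted p = 0.141). Without MIV replicate 2 ENSRNOG00000002728 passed the threshold (log2 fold change -2.72, edgeR adjusted p = 0.0470). In healthy nerve it ranged from 1.60 to 8.89 CPM with a median of 2.57, which overlaps the EV libraries.

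The genes that mark the response to injury at day 3 set MIV replicate 2 apart. Injury-induced genes took 15.6% to 16.5% of counts in EV at day 7, and 15.9%, 23.4% and 11.4% in MIV replicates 1 to 3. Replicate 1 lay inside the EV range, replicate 2 above it and above all the day 3 libraries (18.1% to 21.8%), and replicate 3 below it. Injury-reduced genes took 3.40% to 3.89% in EV and 3.57%, 1.90% and 3.999% in MIV. Replicate 2 lay between the other day 7 libraries and those of day 3, which held 1.05% to 1.63%. Both shares are of all counts, of which muscle-enriched genes took 25.03%, 18.2% and 37.6% in MIV replicates 1 to 3. A larger muscle share lowers other shares. For the injury groups, shares outside the muscle-enriched genes were not taken, so the places of replicates 1 and 3 depend on it.

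By gene, the median level of the 1490 injury-induced genes differed from the EV mean by -0.04, 0.45 and -0.39 log2 units in MIV replicates 1 to 3. The fitted median log2 fold change was 0.14 with all 3 libraries and -0.22 without replicate 2, and voom with quality weights gave -0.05 with all 3, so its sign is not settled. At an unadjusted p under 0.05, 78 were higher (5.23%) and 83 lower (5.57%), both below the shares of all genes. For the 802 injury-reduced genes the library medians were -0.02, -0.77 and 0.03, and the fitted median was -0.16 with all libraries and -0.00 without replicate 2. In both groups the MIV shares of counts lay on both sides of the EV range.

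The genes called without MIV replicate 2 were mostly muscle-enriched. The 649 that rose had a median log2 fold change of 2.61, ranging from 0.53 to 16.34, and 372 changed by over 4-fold. For 76 of them the 3 EV libraries held at most 3 counts in all, so the size of their change is uncertain. Among the 39 that fell, 0 had so few. Of the 649, 531 were muscle-enriched (19.3% of that group, against 4.21% of all genes), 206 of them by more than 5 log2 units (71.5%). Nerve-enriched genes were 16 (1.29%), vein-enriched 5 (0.443%), and those shared by nerve and vein 2 (0.0957%). Injury-reduced genes, which can also be in a tissue group, were 33 (4.03%, near the share of all genes), and injury-induced 7 (0.469%). In no group were 81. MIV replicate 2 took no part in that fit. Its level is measured here from the same EV libraries that made the calls, so it is a description and not an independent check. Over these genes its median lay 0.40 log2 units above the EV mean, with quartiles of -0.11 and 1.48, while replicates 1 and 3, which made the calls, lay 1.77 and 2.85 above. The 39 that fell had a median log2 fold change of -1.33, and 10 changed by over 4-fold. For these, MIV replicate 2 had a median of -1.19 with quartiles of -1.90 and -0.21, and replicates 1 and 3 had -1.05 and -1.55. For the lower genes the library left out thus lay as far from EV at its median as replicate 1 did, and for the higher genes it lay closer to EV.

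The MIV and EV difference was last set beside that at day 3, to learn whether it differed between the days. With edgeR, 0 of 15036 genes passed the adjusted threshold for the difference between days, and 473 (3.15%) had a larger and 323 (2.15%) a smaller MIV over EV log2 fold change at day 7 at an unadjusted p under 0.05. DESeq2 called 17 genes. At day 3 alone, 558 genes were higher in MIV (3.71%) and 217 lower (1.44%) at that unadjusted p. The median log2 fold change of muscle-enriched genes was 0.05 at day 3 and 0.40 at day 7, and that of vein-enriched genes -0.25 and -0.54. Nerve-enriched genes had medians of -0.00 and -0.11. In the 160 of 211 genes beyond 7 log2 units of muscle enrichment that passed the filter, the medians were 5.08 and 7.41. The filter can keep a gene through the MIV day 7 libraries alone, which can raise the day 7 value. With genes that had no count in EV at their lower bound, the day 7 median was 6.90. In MIV day 7 replicate 2 the median level lay 2.16 above the EV mean. Of the muscle-enriched genes, 318 had a larger difference at day 7 (11.7%) and 14 a smaller one (0.514%) at an unadjusted p under 0.05. Of the vein-enriched genes, 52 had a more negative one (4.66%) and 1 a more positive one (0.0896%). The muscle genes beyond 7 log2 units took 0.0278% to 0.0367% of counts in EV at day 3 and 0.0428% to 0.0497% at day 7. In MIV they took 0.197% to 1.24% at day 3 and 4.20%, 0.184% and 11.001% at day 7, so that MIV day 7 replicate 2 lay just below the lowest MIV library of day 3.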

How the data were processed

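RNA-seq was measured with a kit that does not mark strand, per the labels' protocols, so overlapping and antisense genes cannot be told apart. CASAVA and HISAT2 were used per the submitters' processing notes; for the counting tool, genome build and handling of reads shared by paralogs, the sources used here say nothing, so near-identical genes have uncertain counts. The authors deposited raw counts per Ensembl rat gene identifier, without normalization, in a table whose 23 columns each bear 1 library title. Of the identifiers, 0 matched a symbol in the reference table (47357 entries, 0 with an Ensembl identifier), so 31 gene lists kept by symbol had 0 lists with a measured member, and no sequence is printed.

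Tests ran in edgeR 4.0.16 under R 4.3.3 (TMM, filterByExpr at its minimum count, 10, and minimum total, 15, robust quasi-likelihood fit, 1 coefficient per group over the 12 repaired libraries, Benjamini-Hochberg threshold 0.05). CPM use TMM-scaled library sizes for the day 7 values, and library totals for healthy tissues and day 3. Log2 CPM used a prior count of 2. Shares of counts, without scaling, were compared by two-sided exact permutation tests. Alternatives used limma 3.58.1 (voom) and DESeq2 1.42.0, other scalings and left-out libraries. Replicate numbers were taken to pair the day 7 samples because of how deviations from the group means correlated. The correlations were 0.176 to 0.224 for equal numbers and -0.153 to -0.0228 for unequal ones. No label states a shared source. The deviations came from the counts that were then tested. They cancel out within a group, which pushes unequal numbers down when equal ones correlate. The tests were checked on simulated data. Identifiers were named by log2 fold change, at most 2 per direction, among genes with no overlap whose higher group averaged 10 CPM or more. The comparison, groups and rules were chosen with earlier results of these data known.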

Additional observations from a re-analysis of the deposited data

Results flagged for a closer look

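The share of counts taken by nerve-enriched genes moved in opposite directions at the 2 days. At day 3 it was 0.806 percentage points higher in MIV than in EV, with every MIV library above the EV mean. At day 7 it was -0.906 percentage points, with every MIV library below the EV mean. The difference between the days was not tested. Of the day 3 difference, 0.573 points lay in the 105 genes beyond 7 log2 units of nerve enrichment and 0.0703 in the 640 genes at 1 to 2. At day 7 these classes differed by -0.00639 and -0.763 points. The median log2 fold change of the tested nerve-enriched genes was -0.00 at day 3, so the day 3 share does not describe most of them. At day 7 MIV replicate 1 lay inside the EV range, and outside the muscle-enriched genes the difference shrank to -0.250 percentage points.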

How the results depend on the processing

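The count of called genes at day 7, 0 with edgeR, was also 0 with RLE factors, with TMM factors from genes that are not muscle-enriched, without a filter and with the 6 libraries alone. It was 868 with DESeq2, 414 with voom and 1135 with all 23 libraries in edgeR. With the replicate block it was 43 on 12 libraries, 4 on 6 libraries and 171 when MIV day 7 replicate 2 was also left out, an alternative chosen after seeing the data. Leaving out 1 library gave 0 to 688 calls: 45 without MIV day 3 replicate 1, and 16, 688 and 1 without MIV day 7 replicates 1, 2 and 3. For the day 7 minus day 3 difference, DESeq2 gave 17, and leaving out 1 library gave 0 to 3, the 3 without MIV day 7 replicate 2. Counts of genes without overlap were 924 above and 2664 below on CPM of the library total, and ranged over left-out libraries from 1755 to 2833 above and from 2135 to 3053 below; fewer libraries overlap less by construction. The alternatives on these counts were chosen after seeing the data. Median log2 fold changes ran from 0.27 to 0.49 for muscle-enriched and from -0.70 to -0.46 for vein-enriched genes over all settings. Of the 4 named genes, ENSRNOG00000008536 passed the threshold under 10 of 22 alternatives, ENSRNOG00000004583 under 2, ENSRNOG00000047225 under 1 and ENSRNOG00000002728 under 3. The replicate block changed the call of ENSRNOG00000008536 (edgeR adjusted p = 0.00498) and of no other named gene. Except for the leave-outs, the cause of these moves was not tested. At this depth a gene with no count in EV is limited to 3 counts over the group.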
